A study of Mus musculus with 5 samples.

Results

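EBF1 is a transcription factor that B-lymphocyte development requires. The sites described here are positions bound by EBF1 in pro-B cells that the submitters classed as YmA-ind and whose centre lay under 1000 bp from either end of a RefSeq gene of any kind. There were 620 such sites, of 4055 YmA-ind sites (15.3%, exact 95% interval 14.2 to 16.4%) and 7494 sites in all. They were chosen by 2 measured values, the class and the distance, so their number, class and nearness to an end are descriptions with no test.

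The cells were pro-B cells grown from fetal liver that lacked Ebf1 (Ebf1-/-) and were transduced with EBF1 wt. Chromatin was precipitated with an antibody against EBF1, and 1 library of this kind gave the site list. The series holds 5 libraries, the others being EBF1 and BRG1 ChIP in cells with EBF1 YmA and 2 inputs, which were not analysed here. The inputs came from cells with EBF1 wt. No group has a replicate. Each site was 300 bp wide and carried a class but no height or score, which leaves strength and depth unknown. The sources used here do not give how the 3 classes YmA-ind, CTD-ind and YmA-dep were assigned. No RNA was measured, so the pro-B label could not be set against marker genes.

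EBF1 binds DNA as a dimer at a short inverted repeat, and it is known as a pioneer factor, one that can bind closed chromatin and open it for others. Its known targets in B-cell progenitors include genes of the pre-B-cell receptor and Pax5. A factor bound at a promoter lies at the start of a gene, where transcription begins. The other end of a gene is where the transcript ends, and a site there can also belong to the space before the next gene.

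Promoter windows carried the sequence evidence, and they are shown first. RefSeq promoter sequences of build GRCm38.p6, each from 250 bp before to 50 bp after a listed start, held the centre of 91 of the 620 sites. The EBF motif searched was CCCNNGGG with a T before it and an A after it, which reads the same on either strand, so a search of both finds each match once. Of the 91 windows, 8 held it (8.79%, exact 95% interval 3.87 to 16.6%), against 297 of all 32851 windows (0.904%). All 8 are printed as the stretch that the window and the site share, 5′ to 3′ on the strand of the gene, with the motif in capitals. They were chosen for their match after it was seen. They are Gm30039 at chr10:78092831-78093059 (minus strand), Tbx3os2 at chr5:119691169-119691413 (minus), 2310040G24Rik at chr6:86488178-86488383 (minus), Mmp14 at chr14:54431348-54431551 (plus), Gm33628 at chr12:108758142-108758402 (minus), 1700003F12Rik at chr2:154548654-154548948 (plus), Gm39984 at chr2:167079190-167079444 (minus) and Gm35685 at chr16:20590553-20590775 (minus).
Gm30039: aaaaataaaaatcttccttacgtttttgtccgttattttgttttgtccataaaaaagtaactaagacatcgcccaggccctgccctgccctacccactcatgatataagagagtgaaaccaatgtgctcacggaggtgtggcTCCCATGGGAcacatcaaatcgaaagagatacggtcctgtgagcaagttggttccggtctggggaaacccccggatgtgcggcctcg
Tbx3os2: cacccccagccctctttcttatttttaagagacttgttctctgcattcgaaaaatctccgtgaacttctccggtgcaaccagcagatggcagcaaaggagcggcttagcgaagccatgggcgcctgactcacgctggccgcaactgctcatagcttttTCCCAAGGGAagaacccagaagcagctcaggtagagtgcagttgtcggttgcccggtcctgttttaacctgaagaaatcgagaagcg
2310040G24Rik: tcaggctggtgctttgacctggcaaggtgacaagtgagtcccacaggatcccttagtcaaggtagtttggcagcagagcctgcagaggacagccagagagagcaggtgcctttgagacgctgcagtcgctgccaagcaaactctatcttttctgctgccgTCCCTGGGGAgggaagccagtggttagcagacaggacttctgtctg
Mmp14: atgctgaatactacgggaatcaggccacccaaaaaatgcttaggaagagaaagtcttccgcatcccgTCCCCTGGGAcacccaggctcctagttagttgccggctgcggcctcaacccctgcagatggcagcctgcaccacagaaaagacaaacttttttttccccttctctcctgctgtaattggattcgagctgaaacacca
Gm33628: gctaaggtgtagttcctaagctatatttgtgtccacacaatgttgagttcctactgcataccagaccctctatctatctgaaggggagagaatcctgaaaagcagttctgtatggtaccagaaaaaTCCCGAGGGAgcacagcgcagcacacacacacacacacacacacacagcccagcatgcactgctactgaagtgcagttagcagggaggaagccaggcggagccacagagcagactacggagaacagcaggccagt
1700003F12Rik: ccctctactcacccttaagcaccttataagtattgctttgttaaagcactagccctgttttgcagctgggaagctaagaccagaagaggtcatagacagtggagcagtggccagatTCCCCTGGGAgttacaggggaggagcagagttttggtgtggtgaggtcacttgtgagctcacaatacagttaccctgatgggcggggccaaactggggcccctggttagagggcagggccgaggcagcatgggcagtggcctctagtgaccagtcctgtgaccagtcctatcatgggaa
Gm39984: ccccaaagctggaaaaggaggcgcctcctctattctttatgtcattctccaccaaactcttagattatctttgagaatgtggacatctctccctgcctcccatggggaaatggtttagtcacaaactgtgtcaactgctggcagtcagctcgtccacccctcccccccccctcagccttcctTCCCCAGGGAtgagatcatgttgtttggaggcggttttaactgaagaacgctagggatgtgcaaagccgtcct
Gm35685: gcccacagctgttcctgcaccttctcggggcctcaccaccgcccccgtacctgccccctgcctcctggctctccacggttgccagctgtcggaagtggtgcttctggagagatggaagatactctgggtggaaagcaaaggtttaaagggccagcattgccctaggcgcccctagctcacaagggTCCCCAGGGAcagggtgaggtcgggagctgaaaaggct
Of these genes, Mmp14 encodes a membrane-bound metalloprotease, and Tbx3os2 is named as a transcript opposite to the developmental factor gene Tbx3. Mmp14 and 1700003F12Rik were annotated as protein-coding, and the others as long non-coding RNA genes (lncRNAs, transcripts with no long reading frame).

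In all 8 windows the motif lay close to the middle of the site. Its middle was 3.5 bp from the site centre at Gm30039, 12.5 bp at Tbx3os2, 14.5 bp at 2310040G24Rik and 18.5 bp at Mmp14. It was 19.5 bp away at Gm33628, 23.5 bp at 1700003F12Rik, 36.5 bp at Gm39984 and 39.5 bp at Gm35685. The shorter motif CCCNNGGG, which the longer one contains, was in 44 of the 91 windows (48.4%, 37.7 to 59.1%), against 13.7% of all windows. Of its 59 matches, 42 had their middle within 50 bp of the site centre, and the median distance was 24.5 bp. Overlapping matches counted separately. Every window searched held a site centre, which limits the distances, and no expected distance was computed. The windows were richer in G and C than windows at large (median 57.3% G or C, against 52.7%), and the part of base composition in these shares was not tested. A window without a match says only that these letters are not in it.

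**Figure D1:**
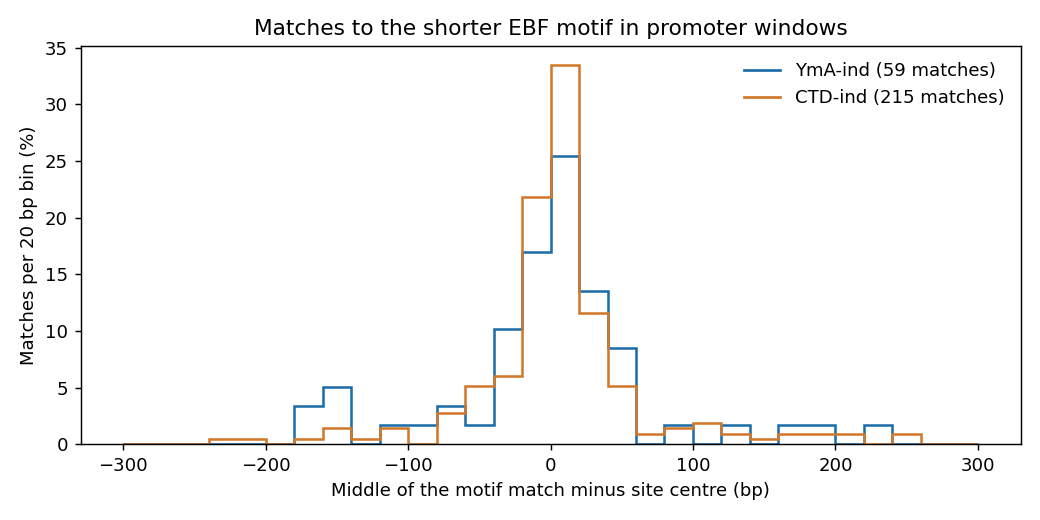
Position of each match to the shorter EBF motif relative to the centre of its site (x axis, bp), as the share of matches per 20 bp bin (y axis, %), for promoter windows that hold the centre of a YmA-ind site (59 matches) or a CTD-ind site at a gene end (215 matches). Matches of both classes pile up around the site centre, with median distances of 24.5 bp for YmA-ind and 16.5 bp for CTD-ind sites. Every window holds a site centre, which limits the distances, and overlapping matches count separately.

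The promoter windows of Ptpn6 and Csf1 are shown, picked after their values were seen, because both genes have well-known roles in blood cells and both sites lay just before the start. Ptpn6 encodes SHP-1, a phosphatase that dampens receptor signalling in B cells, and Csf1 encodes a growth factor of macrophages. The stretch at Ptpn6 (chr6:124738660-124738872, minus strand) held neither motif, and that at Csf1 (chr3:107760460-107760719, minus strand) held the shorter one, in capitals.
Ptpn6: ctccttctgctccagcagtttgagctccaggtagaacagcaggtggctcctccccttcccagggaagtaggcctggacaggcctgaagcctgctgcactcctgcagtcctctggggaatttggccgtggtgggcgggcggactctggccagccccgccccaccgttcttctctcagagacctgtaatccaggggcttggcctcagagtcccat
Csf1: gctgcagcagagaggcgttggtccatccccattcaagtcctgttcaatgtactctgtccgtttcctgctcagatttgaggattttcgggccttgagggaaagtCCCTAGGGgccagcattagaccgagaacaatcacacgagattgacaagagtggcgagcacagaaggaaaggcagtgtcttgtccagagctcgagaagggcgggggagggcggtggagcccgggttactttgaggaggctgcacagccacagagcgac
The site at Ptpn6 was centred 13 bp outside the gene, and the site at Csf1 140 bp outside.

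The offset of the sites from the nearest end spread over the whole range that the rule allowed, with a lean towards the end itself. The lowest offset was 0 bp, the median 361 bp and the highest 998 bp, and 111 sites (17.9%) lay under 100 bp. Just inside the limit were the sites at Qrfp and Dpy19l3, both at 998 bp, and Gm39392 at 997 bp. Just outside were those at Gm5431 (1004 bp), a second site of Tnni2 (1005 bp) and Gm31356 (1005 bp). A centre lay inside the gene with the nearest end at 295 sites and outside it at 325.

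Where the strand of the gene was known, 299 of 447 sites had a gene start as their nearest end (66.9%, exact 95% interval 62.3 to 71.2%) and 148 had the other end. At starts, 159 sites were centred before the start and 140 after it. The 100 bp before the start held 44 sites, more than any other stretch of that length, and the first 100 bp after it held 23. The median offset was 325 bp at starts and 413.5 bp at other ends, and under 100 bp lay 67 of 299 sites at starts (22.4%) and 7 of 148 at other ends (4.73%). Of the 148 sites nearest an other end, 139 had no start of the promoter table under 1000 bp. That table does not list all genes, so starts of unlisted genes could not be counted. For 173 sites the strand was unknown, 75 of them at protein-coding genes.

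**Figure D2:**
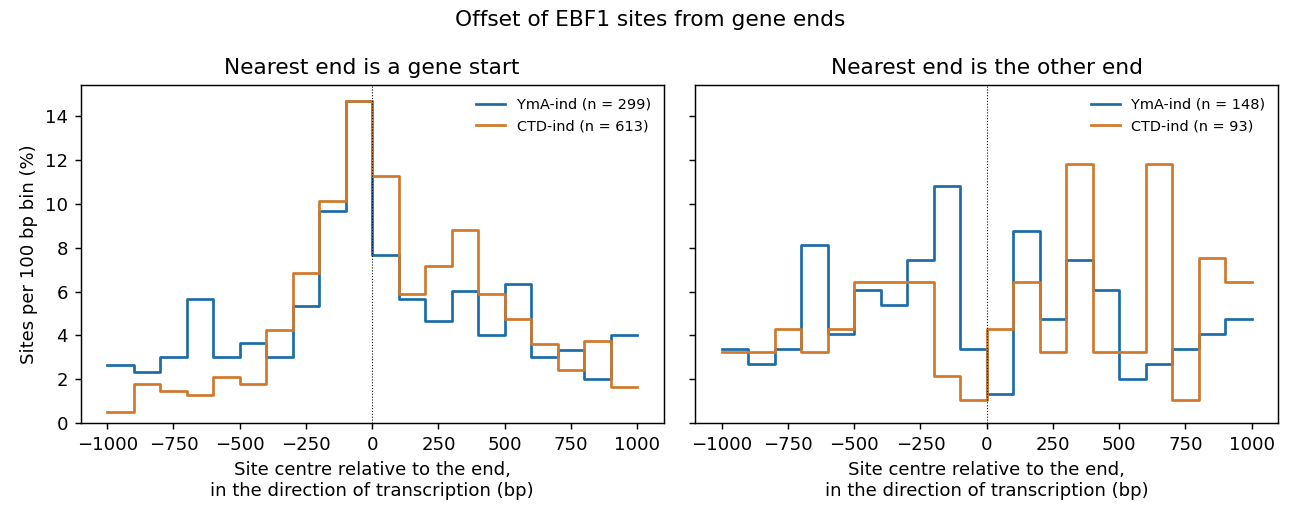
Site centre relative to the nearest gene end in the direction of transcription (x axis, bp), as the share of sites per 100 bp bin (y axis, %), for YmA-ind and CTD-ind sites whose nearest end is a start (299 and 613 sites) or the other end (148 and 93 sites). At starts both classes peak in the 100 bp before the start. At other ends no such peak is seen.

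Protein-coding genes supplied most of the nearest ends, 382 of 620 (61.6%). Genes of lncRNAs supplied 169 (27.3%). Pseudogenes supplied 30 (4.84%), small RNA genes 20 (3.23%) and antigen receptor segments or constant regions 19 (3.06%). Coding genes make up 43.7% of the annotation, lncRNA genes 25.6% and pseudogenes 20.8%. Small RNA genes make up 8.50% of it and receptor segments or constant regions 1.35%. The median offset was 363.5 bp at coding genes and 381 bp at lncRNA genes, and 450.5 bp at pseudogenes. At receptor segments it was 88 bp.

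**Figure D3:**
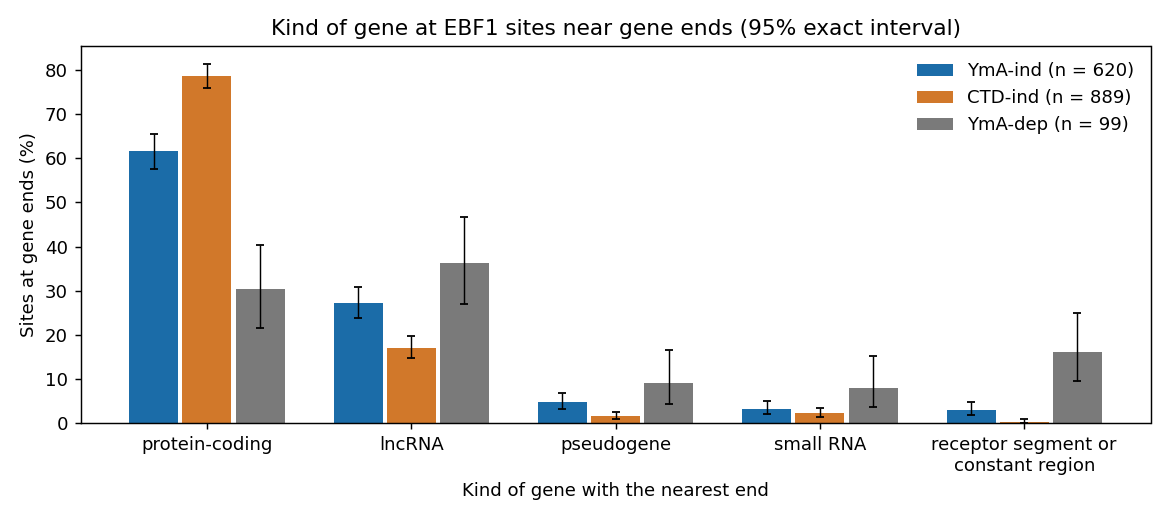
Kind of gene with the nearest end (x axis) and the share of sites at gene ends (y axis, %), for YmA-ind (620), CTD-ind (889) and YmA-dep sites (99). Error bars are exact 95% binomial intervals and cover counting error only. The coding share of YmA-ind sites (61.6%) lies between those of CTD-ind (78.7%) and YmA-dep sites (30.3%).

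Whether the YmA-ind sites at gene ends differ from those of the other classes was tested on 6 measures that the rule did not use. CTD-ind sites at gene ends numbered 889 and YmA-dep sites 99, found with the same distance. All tests were two-sided Fisher's exact tests on counts of sites, with Benjamini-Hochberg adjustment over the 12 tests, of which 5 passed 0.05. Sites of 1 library are not replicates, and the p-values say nothing of the spread between cultures.

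YmA-ind sites were less often at coding genes than CTD-ind sites and more often than YmA-dep sites. A protein-coding end was within the distance at 398 of 620 YmA-ind sites (64.2%, interval 60.3 to 68.0%), against 738 of 889 CTD-ind sites (83.0%, 80.4 to 85.4%). The difference was -18.8 percentage points (odds ratio 0.367, exact test, adjusted p = 1.71e-15). Without pseudogenes and genes named only by a Gm number or a Rik clone it was -6.33 points (exact test, adjusted p = 8.86e-06). Of YmA-dep sites, 34 of 99 (34.3%, 25.1 to 44.6%) had one, a difference of 29.9 points (odds ratio 3.43, exact test, adjusted p = 1.35e-07). With a distance of 2500 bp it was 11.4 points (exact test, adjusted p = 0.00573). Receptor segments and constant regions did not count as protein-coding. Without receptor loci the difference from YmA-dep sites was 25.1 points (exact test, adjusted p = 6.17e-05).

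YmA-ind sites were also less often at a gene start than CTD-ind sites. The nearest end was a start at 66.9% of YmA-ind sites, against 613 of 706 CTD-ind sites (86.8%, 84.1 to 89.2%). The difference was -19.9 points (odds ratio 0.307, exact test, adjusted p = 7.76e-15). Set against YmA-dep sites, of which 32 of 56 had a start (57.1%, 43.2 to 70.3%), the difference of 9.75 points did not pass (exact test, adjusted p = 0.238). Ends of 2 or more genes were within the distance at 91 YmA-ind sites (14.7%, 11.98 to 17.7%), against 204 CTD-ind sites (22.9%, 20.2 to 25.9%), a difference of -8.27 points (exact test, adjusted p = 0.000216). Without pseudogenes and Gm or Rik genes, that difference was -2.73 points (exact test, adjusted p = 0.341).

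Another EBF1 site within 10 kb was found for 204 YmA-ind sites (32.9%, 29.2 to 36.8%), against 236 CTD-ind sites (26.5%, 23.7 to 29.6%). The difference of 6.36 points passed (exact test, adjusted p = 0.0194) and was 6.81 points at ends of protein-coding genes only (exact test, adjusted p = 0.0539). The nearest neighbour of these 204 was YmA-ind in 111 cases, CTD-ind in 72 and YmA-dep in 21 (54.4%, 35.3% and 10.3%), close to the 54.1%, 34.0% and 11.9% that these classes make up of all 7494 sites. The centre was inside the gene at 47.6% of YmA-ind sites, against 52.3% of CTD-ind sites (-4.73 points, exact test, adjusted p = 0.113) and 37.4% of YmA-dep sites (10.2 points, adjusted p = 0.112).

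The EBF motif was in 8 of 91 promoter windows at YmA-ind sites, against 42 of 244 at CTD-ind sites (17.2%, 12.7 to 22.5%). The difference of -8.42 points did not pass (odds ratio 0.464, exact test, adjusted p = 0.112). At windows of protein-coding genes, a choice made after the data were seen, it was -14.9 points (exact test, adjusted p = 0.00735). Without pseudogenes and Gm or Rik genes it was -14.7 points (exact test, adjusted p = 0.00373). In the central 100 bp it was -3.62 points and not called (exact test, adjusted p = 0.73). With CCCNNGGG flanked by TT and AA it was 0.279 points, also not called. The windows of YmA-ind sites had a median of 57.3% G or C, against 64.3% for CTD-ind sites, and the part of this in the motif share was not tested. For YmA-dep sites 4 windows were held, too few to compare. Against YmA-dep sites, the differences in neighbours (0.58 points, exact test, adjusted p = 1) and in ends of 2 or more genes (1.55 points, adjusted p = 0.912) did not pass.

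**Figure D4:**
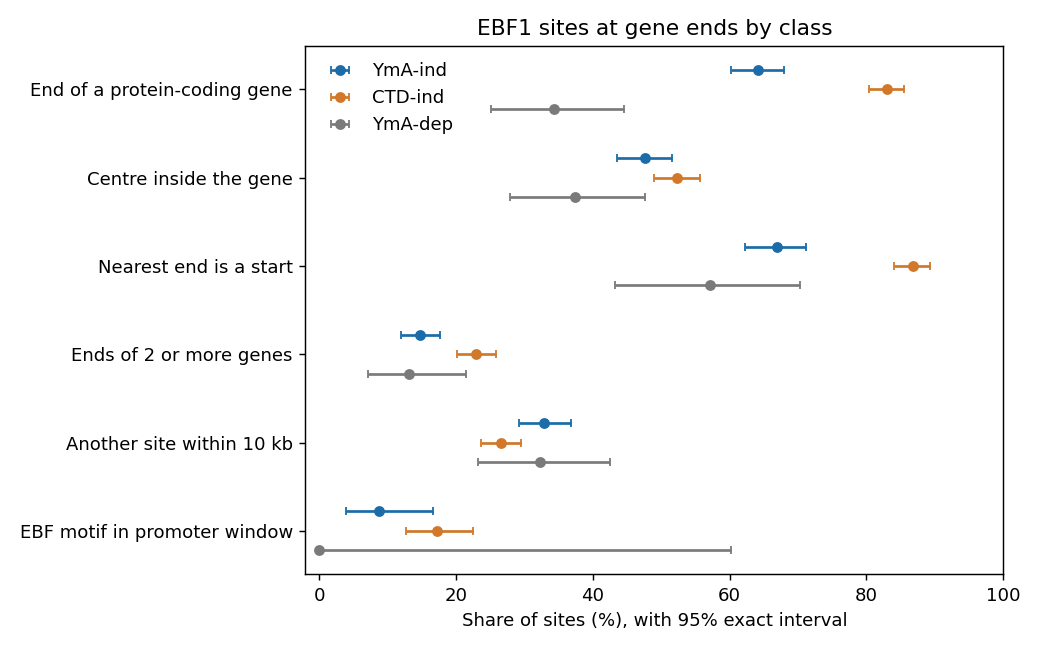
Share of sites (x axis, %) with each of 6 properties (y axis) for YmA-ind, CTD-ind and YmA-dep sites at gene ends, as points with exact 95% binomial intervals. YmA-ind and CTD-ind sites stand apart for coding ends (64.2% and 83.0%) and starts (66.9% and 86.8%).

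The 620 sites lay at ends of 698 genes, 442 of them protein-coding. That is 1.42% of the 49209 genes of the annotation, and 2.05% of the 21521 protein-coding ones. Nearly all had 1 such site, and 18 had 2. Genes of the B lineage were at 10.0% (9 of 90 genes in 4 lists), and genes of 12 other lists at 3.21% (8 of 249). CTD-ind sites lay at ends of 17 of the 90 (18.9%) and 24 of the 249 (9.64%), against 2.19% of all genes. The lists were chosen with results of these data known, so these shares are a description with no test.

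**Figure D5:**
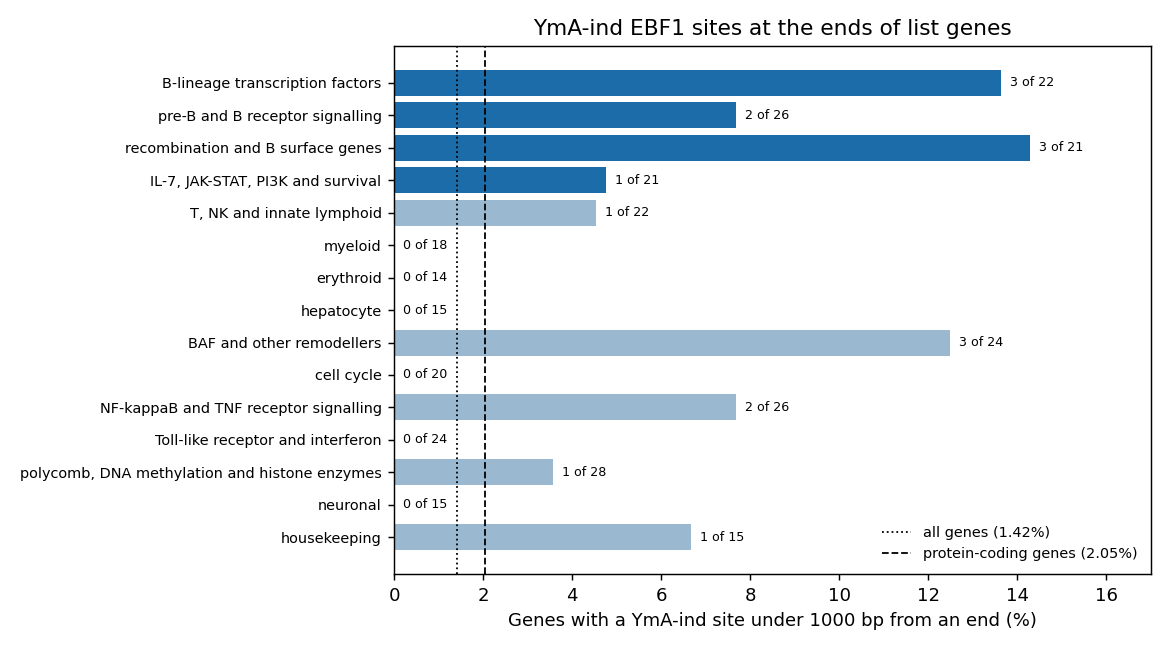
Share of the genes of each list with a YmA-ind site under 1000 bp from an end (x axis, %), with the number of genes beside each bar. The dotted and dashed lines mark all genes (1.42%) and protein-coding genes (2.05%). The first 4 bars are the B-lineage lists, with 1 to 3 genes each, and 6 of the other 11 lists shown have none.

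Of 22 genes in the list of B-lineage transcription factors, 3 had one, each past the other end of the gene. Ebf1 itself had one centred 155 bp outside on chr11:45008102-45008401. These cells lack Ebf1 and received it by transduction. Spib, which encodes an ETS factor of B cells, had one 355 bp outside (chr7:44525491-44525790). Irf8, an interferon regulatory factor of B and myeloid cells, had one 881 bp outside (chr8:120757426-120757725).

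Among 26 receptor signalling genes, 2 had a site, Ptpn6 and Dok3. Ptpn6 was described above (chr6:124738573-124738872). Dok3, an adaptor that restrains the B-cell receptor, had a site inside the gene, 956 bp from its start (chr13:55529240-55529539). The signalling chains Cd79a and Cd79b had CTD-ind sites at their ends, at 154 bp and 58 bp. Other genes of the 4 B-lineage lists also had a CTD-ind but no YmA-ind site at an end. They included the pre-B-cell receptor genes Vpreb1 (121 bp), Igll1 (187 bp) and Vpreb2 (844 bp), and Vav1 (30 bp), Ceacam1 (213 bp) and Plcg2 (331 bp).

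Surface and recombination genes had a site at 3 of 21. The tetraspanin gene Cd37 had a YmA-ind site inside, 169 bp from its other end (chr7:45233652-45233951), and a CTD-ind site at 51 bp from an end. The chemokine receptor gene Cxcr5 had a YmA-ind site inside at 284 bp from one end (chr9:44511922-44512221). That site was nearer to an end of Bcl9l, 165 bp outside it. Cxcr5 also had a YmA-dep site at 54 bp from an end. Cd24a, a surface glycoprotein gene of early B cells, had one inside at 827 bp. In the IL-7, PI3K and survival list, 1 of 21 had a site. This was Pik3cd, the gene of a PI3K catalytic subunit of white blood cells, with a site 246 bp before its start (chr4:149702663-149702962).

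Genes of chromatin remodelling complexes had a site at 3 of 24. Arid1a, a BAF subunit with DNA-binding activity, had one inside the gene 162 bp from its start. Smarcd1, another BAF subunit, had one 377 bp past its other end and a CTD-ind site as well. Brd7, a bromodomain subunit, had one 690 bp before its start. Ezh2, the polycomb methyltransferase, was the 1 of 28 histone and DNA methylation genes with a site, 625 bp before its start.

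In the NF-kappaB and TNF receptor list, Lta (190 bp inside from its start) and Tnfrsf1b (278 bp inside from its start) had sites, 2 of 26. Lta encodes lymphotoxin alpha, and Tnfrsf1b a receptor that binds it. Cd3d, a T-cell receptor chain gene, was the 1 of 22 T and NK genes, with a site inside, 445 bp from its other end. Of 15 housekeeping genes, Rpl13a had a site, 919 bp before its start. The myeloid (18), erythroid (14), hepatocyte (15), cell cycle (20), neuronal (15) and Toll-like receptor and interferon (24) lists had 0.

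The coding genes with the smallest offsets came from many functions. The site at Acap1 was centred on an end base (0 bp), and there was a CTD-ind site at that gene too. Gm536 was at 2 bp, Ccdc88b, Krr1 and Tifab at 3 bp, Klk4 and Traf3ip3 at 4 bp, Cops4 and Samd10 at 9 bp and Gja4 at 12 bp. For Ccdc88b, Krr1, Tifab, Klk4, Traf3ip3, Cops4 and Gja4 the end was the start. Krr1 acts in ribosome assembly, Cops4 is a COP9 signalosome subunit, Klk4 a secreted protease and Gja4 a gap junction protein. Traf3ip3 and Tifab encode adaptors linked to TRAF proteins.

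Further genes were picked after their values were seen, to show which functions occur, and they support no count. Among 18 transcription and chromatin regulators were Lyl1, a helix-loop-helix factor of blood progenitors, with sites 71 bp before its start and 922 bp inside from its other end. Nr1h2 (94 bp), Usf1 (101 bp) and Gabpa (113 bp) had a site just before the start. Rfxank, needed for MHC class II transcription, had one 121 bp inside from the start. Targets and modulators of Notch were among those with a site at the other end, namely Nrarp (204 bp outside) and Hes5 (228 bp inside). Ets2 had one 310 bp inside from its other end, and Hes5 had 2 CTD-ind sites as well. Junb had a site 967 bp before its start, and Id1, an inhibitor of E proteins, had one 303 bp inside.

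Of 16 genes of immune signalling and the cytoskeleton, Was, which drives actin branching in blood cells, had a site 42 bp before its start. Coro1a, an actin-binding protein of white blood cells, had one 568 bp before. Calcium entry and release genes included Orai3 (62 bp before its start), Itpr2 (73 bp inside from its start) and Orai2 (489 bp inside from its start). At other ends were Sit1, a transmembrane adaptor gene with sites at 95 bp and 809 bp, Btg1 (126 bp outside), a growth-restraining gene, and Prkcd (132 bp outside), a kinase gene. Both chains of the IL-10 receptor had a site inside, Il10ra at 651 bp and Il10rb at 674 bp. Nckap1l, a blood-cell subunit of the WAVE actin complex, had one at 875 bp.

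Of 12 genes of mitochondria and metabolism, Atp5g3, an ATP synthase subunit gene, had a site 38 bp before its start. Fis1, a fission protein gene, and Cox15, of haem A synthesis, had one at 56 bp, before and after the start. The glycogen genes Gyg (53 bp before) and Gys1 (79 bp inside) were also close. Among 8 genes of RNA processing and ribosome assembly were Prpf31 (23 bp inside), Prpf38b (142 bp before) and Aar2 (223 bp inside), all of the splicing machinery, with Krr1 from above.

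Some sites lay under 1000 bp from ends of several neighbouring genes. Of the 91 sites at ends of more than 1 gene, 87 were at ends of 2 genes, 3 at 3 and 1 at 4. A site on chromosome 7 lay 18 bp inside the zinc finger gene Zfp784 and 91 bp outside its neighbour Zfp580, both at the start. A site on chromosome 11 lay outside the transporter genes Slc47a1 (85 bp) and Slc47a2 (455 bp). Another lay outside the histone genes H2ac11 (296 bp) and H4c9 (820 bp), and one near Usf1 was also 966 bp from the other end of Arhgap30. Men1, which encodes menin, a partner of histone methyltransferases, and the kinase gene Map4k2 shared both of their sites, at 133 and 856 bp from Men1 and 229 and 760 bp from Map4k2.

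Of the 18 genes with 2 sites, 12 were protein-coding. By the naming rule the first 10 were Amn1, Gm11729, Gm36496, Gm38247, Gm41545, Gm46942, Gm52811, Lyl1, Map4k2 and Men1. Amn1 had them 133 and 745 bp before its start. Gm41545 had them 41 and 678 bp inside from its start. Where the strand was known, 6 genes had a site at both the start and the other end. These were Lyl1, Gm52811 (922 bp from the start and 174 bp from the other end), Gm11729 (773 and 381 bp), and, outside the naming rule, Mxd3 (729 and 460 bp), Odf3 (396 and 732 bp) and Slc35b4 (80 and 976 bp).

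Families by gene symbol were mostly near the background of 2.05% for coding genes. Solute carrier genes had sites at 7 of 384 (1.82%), Zfp and related zinc finger genes at 9 of 448 (2.01%), ubiquitin ligase and protease genes at 5 of 259 (1.93%) and Tmem genes at 7 of 249 (2.81%). Cytosolic ribosomal protein genes had 2 of 86, Rpl39 (51 bp before its start) and Rpl13a. Mitochondrial ribosomal genes had 1 of 84 (Mrpl11), histone genes 2 of 102, Eif genes 1 of 67 (Eif1ad) and Dusp genes 1 of 24 (Dusp5, 237 bp before its start). Rab and TBC domain genes had 4 of 109, and genes named Arhgap, Arhgef or Dock 3 of 74, among them the lncRNA gene Arhgap27os3. Proteasome genes (57) and vomeronasal receptor genes (618) had 0, and olfactory receptor genes had 1 of 1427, the pseudogene Olfr1069-ps1.

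Among genes not annotated as protein-coding, which here include antigen receptor segments, 0.925% had a site (256 of 27688). The lncRNA genes with the smallest offsets were 2310040G24Rik (6 bp), Gm29686 (12 bp), Gm31097 (15 bp), Gm40464 (18 bp) and Gm35685 (23 bp). Of 169 sites nearest to a lncRNA gene, 83 were at its start and 52 at its other end, and for 34 the strand was unknown. Pseudogenes were led by Gm18633 (28 bp), Gm38247 (67 bp), Gm12341 (98 bp), Gm7400 (141 bp) and Gm2719 (160 bp). Small RNA genes were led by Gm24950 and Gm25498 (14 bp each), LOC115487308 (70 bp) and Mir6406 (82 bp). Transfer RNA genes had 3 of 406, and named small nucleolar RNA genes 1 of 142 (Snord93, 900 bp). Genes named by a Gm number had 193 of 21435 (0.900%) and Rik clones 26 of 2292 (1.13%).

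MicroRNA genes had a site at 11 of 1182 (0.931%), none of them inside the short hairpin gene. A single site (chr8:84209133-84209432) lay past the end of the cluster of Mir23a, Mir27a and Mir24-2, a polycistron known to hold back B-cell development when overproduced in mouse progenitors. It was centred 361 bp past Mir24-2, 524 bp past Mir27a and 690 bp past Mir23a. Mir3074-2, annotated on the opposite strand of Mir24-2, had its start 375 bp away. The main mature arms are shown with the seed (bases 2 to 8), the part that pairs with targets, in capitals. Mir139, shown with them, had a YmA-ind site 667 bp before its start on chromosome 7 and a YmA-dep site as well.
mmu-miR-23a-3p: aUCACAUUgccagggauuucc
mmu-miR-27a-3p: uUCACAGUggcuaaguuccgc
mmu-miR-24-3p: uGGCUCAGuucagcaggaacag
mmu-miR-139-5p: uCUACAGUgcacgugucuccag
RefSeq held 18 mature sequences for the 11 genes, with 18 different seeds, so no pair of them shared one. The other microRNA genes were Mir8102 (219 bp), Mir3971 (489 bp), Mir7086 (529 bp), Mir5046 (648 bp), Mir6974 (831 bp) and Mir6406.

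Antigen receptor segments had the smallest median offset of the 5 kinds of gene. The same held at CTD-ind sites (47 bp, 3 sites) and YmA-dep sites (94 bp, 16 sites). Segments or constant regions supplied 3.06% of YmA-ind, 0.337% of CTD-ind and 16.2% of YmA-dep sites at gene ends. Of the 19 YmA-ind sites nearest to a segment or constant region, 18 lay outside it and 18 under 250 bp from its end. In the immunoglobulin kappa locus 15 sites lay at segment ends, with Igkv4-51 (30 bp), Igkv4-58 (44 bp), Igkv2-112 (56 bp) and Igkv2-109 (79 bp) nearest. In the heavy chain locus Ighv1-26 (43 bp) and Ighv2-7 (90 bp) had one. The variable segments of this array are near copies of one another, so the placing of reads between them is uncertain. The T-cell receptor loci gave Trav6n-7 (127 bp, inside) and Trdc (494 bp). Receptor loci held 22 of the 620 sites in all.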

How the data were processed

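Chromatin immunoprecipitation of EBF1 from 1 library of mouse pro-B cells (Ebf1-/- fetal liver cells with EBF1 wt) gave the site list used here. The submitters' processing notes name deepTools, Bowtie2 and SAMtools as tools and GRCm38 (mm10) as the build. The sources used here give no peak caller, threshold or class rule. The deposited values are positions in bp and a class label, with no score or count, so depth is unknown. Coordinates are 1-based.

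Genes came from a RefSeq table of GRCm38.p6, without 345 genes that it lists from scaffolds, which left 49209. Strand came from RefSeq promoter and microRNA tables, which covered 27799 genes (80.3% of protein-coding genes). In counts and tests, inside and outside refer to the gene with the nearest end, and beside a named gene to that gene. Offsets are centre to end. Tests were Fisher's exact tests in scipy 1.17.1 (pandas 2.3.3, Python 3.11.15), checked on simulated data. Intervals are exact (Clopper-Pearson) and cover counting error only.

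Sites, lists, families and tests were chosen with earlier results of these data known. Named genes were the B-lineage list genes with a site, the 10 genes with most sites and the 10 nearest coding genes. Up to 5 nearest genes of other lists, families and kinds other than protein-coding were also named. Not every gene of the families is printed, and 1 of the 12 other lists is not reported here on its own. Sequences were to come from named genes only, and 8 windows with the motif were shown instead. Alternatives were other distances, other gene sets, sites left out, 1 site per run of sites with gaps under 10 kb, distance from the span of the site and other motifs.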

Additional observations from a re-analysis of the deposited data

How the results depend on the processing

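Of 110 alternative values over 17 results, 86 left the sign and the call, or the count within 1.5 times, as reported. The coding and start differences from CTD-ind sites were called in each alternative run, with the coding difference between -23.7 and -6.33 points and the start difference between -22.8 and -18.7 points. With 500 bp there were 396 sites at 427 genes, 5 genes of the 12 other lists and 5 microRNA genes. With 2500 bp there were 1136 sites at 1356 genes, 16 genes of the 4 B-lineage lists, 20 of the 12 other lists and 26 microRNA genes. At ends of coding genes only, a choice made after the data were seen, there were 398 sites at 442 genes. These counts follow from the width and the gene set.

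With 2500 bp, the inside share against CTD-ind sites (-6.09 points, exact adjusted p = 0.0063), the start share against YmA-dep sites (10.9 points) and the motif share against CTD-ind sites (-10.3 points) were called. The motif share was also called without pseudogenes and Gm or Rik genes (-14.7 points) and at coding genes (-14.9 points). It was not called in the central 100 bp, and with CCCNNGGG flanked by TT and AA it was 0.279 points. Against YmA-dep sites, with 4 windows and so too few to compare, it was -26.6 points with CCCNNGGG and not called (exact test, adjusted p = 0.434). Calls were lost for ends of 2 or more genes without pseudogenes and Gm or Rik genes (-2.73 points) and for neighbours at coding genes (6.81 points). Neighbours against YmA-dep sites, never called, turned to -1.17 points with 2500 bp, -2.97 without receptor loci, -0.709 within 25 kb and -1.70 at coding genes. The cause was not tested. No paired analysis was possible because each group holds 1 library. No score was given, so stricter peak thresholds were not run, and absence of a site does not show absence of binding.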

Other observations

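Of the 698 genes with a YmA-ind site at an end, 39 also had a CTD-ind site at an end (5.59%) and 4 a YmA-dep site (0.573%). Over all genes these shares were 2.19% and 0.226%, and the differences were not tested. The 2 sets differ in kind of gene, with 442 of the 698 protein-coding against 21521 of all 49209. The shares were not adjusted for this. Genes with both a YmA-ind and a CTD-ind site included Acap1, Cd37, Hes5, Orai3, Prkcd and Smarcd1, and those with a YmA-dep site included Cxcr5, Mir139 and Mrpl11.

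On the X chromosome, 15 of 45 YmA-ind sites lay at gene ends (33.3%, exact 95% interval 20.0 to 49.0%), against 605 of 4010 on the autosomes (15.1%). Autosomes ranged from 7.21% on chromosome 18 to 21.95% on chromosome 19. The X sites lay at Was, Rpl39, Mospd1, Elf4, Phf8, Stag2 and Jpx, the last a lncRNA gene of the X inactivation centre, among others. This chromosome was singled out after the values were seen, and the difference was not tested.

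Promoter windows with a high ratio of observed to random CpG (0.6 or more) made up 41 of 91 at YmA-ind sites (45.1%), against 182 of 244 at CTD-ind sites (74.6%) and 35.8% of all windows. This measure was chosen after the data were seen, and the differences were not tested.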
